A study of Mus musculus with 27 samples.

Results

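The mouse alpha and beta globin loci were followed window by window through the exit from naive pluripotency in whole-genome bisulfite data. The windows were those that overlap the GRCm38 bodies of Hba-x, Hba-a1 and Hba-a2 on chromosome 11, or of Hbb-y, Hbb-bh1, Hbb-bs and Hbb-bt on chromosome 7, or the 20 kb on either side of these genes. They number 24 of the 453245 windows in the deposited table, and all 24 are among the 444250 windows tested. The alpha locus has 15 windows of 567 to 6512 bp (median 4719 bp), and the beta locus has 9 windows of 5172 to 13481 bp (median 9681 bp). The table is named for windows of 100 CpGs, so a longer window has its CpGs further apart, and the median tested window was 5058 bp long. Of the 24 windows, 8 overlap a body of the 7 globin genes, 4 in each locus.

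The 3 cell lines were compared at 3 days, with 3 libraries in each of the 9 groups. TET_KO lacks Tet1, Tet2 and Tet3, the dioxygenases that oxidise 5-methylcytosine, in a triple knockout, and TET_WT is its wild-type parent. DNMT_WT is another wild-type line, the parent of a knockout of Dnmt1, Dnmt3a and Dnmt3b that was not analysed here. At D0 the cells of all 3 lines were mouse embryonic stem cells in 2i/Lif, a medium that keeps them naive and low in methylation, and at D1 and D2 they were epiblast-like cells (EpiLC), a model of the early post-implantation epiblast. The labels do not say whether libraries came from separate cultures, or whether TET_KO is 1 clone, so every p-value below measures the spread between these libraries. No sample is an erythroid cell, and the methylation values do not show the Tet deletion itself.

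Globin genes encode the chains of haemoglobin and are transcribed in red blood cell precursors, the embryonic genes mainly in the first, yolk-sac erythroid cells. In the mouse, Hba-x (zeta globin), Hbb-y and Hbb-bh1 are embryonic, while Hba-a1, Hba-a2, Hbb-bs and Hbb-bt are adult. The main distant enhancers of the alpha genes lie in introns of the neighbouring housekeeping gene Nprl3, and those of the beta genes form the locus control region upstream of Hbb-y. CpG methylation is placed by the Dnmt enzymes, and it is removed by Tet oxidation or by dilution through replication.

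The 250 bases before the start of each gene show how few CpGs most globin promoters hold, compared with the promoter of Nprl3. Entries in the RefSeq table (GRCm38.p6) matched 6 of the 7 genes. Capitals mark the CpGs.
Hba-x (chr11:32276350-32276599, plus strand): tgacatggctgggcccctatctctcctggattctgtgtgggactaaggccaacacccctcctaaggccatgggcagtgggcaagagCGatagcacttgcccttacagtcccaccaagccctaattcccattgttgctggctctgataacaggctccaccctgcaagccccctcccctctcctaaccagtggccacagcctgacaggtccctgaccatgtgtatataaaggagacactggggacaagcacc
Hba-a1 (chr11:32283422-32283671, plus strand): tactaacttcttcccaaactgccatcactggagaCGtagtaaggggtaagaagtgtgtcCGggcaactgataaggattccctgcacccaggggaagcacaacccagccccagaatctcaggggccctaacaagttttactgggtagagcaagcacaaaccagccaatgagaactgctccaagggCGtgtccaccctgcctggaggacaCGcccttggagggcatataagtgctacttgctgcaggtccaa
Hbb-y (chr7:103853208-103853457, minus strand): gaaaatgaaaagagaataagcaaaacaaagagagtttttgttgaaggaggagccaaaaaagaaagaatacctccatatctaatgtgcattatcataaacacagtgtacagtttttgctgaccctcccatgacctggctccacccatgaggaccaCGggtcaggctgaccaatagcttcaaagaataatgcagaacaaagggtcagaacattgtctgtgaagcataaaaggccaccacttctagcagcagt
Hbb-bs (chr7:103827929-103828178, minus strand): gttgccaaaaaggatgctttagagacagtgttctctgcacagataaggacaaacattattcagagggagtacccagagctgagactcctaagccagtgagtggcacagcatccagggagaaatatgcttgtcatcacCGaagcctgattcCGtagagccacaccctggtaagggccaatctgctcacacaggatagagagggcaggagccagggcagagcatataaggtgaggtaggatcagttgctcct
Hbb-bt (chr7:103813924-103814173, minus strand): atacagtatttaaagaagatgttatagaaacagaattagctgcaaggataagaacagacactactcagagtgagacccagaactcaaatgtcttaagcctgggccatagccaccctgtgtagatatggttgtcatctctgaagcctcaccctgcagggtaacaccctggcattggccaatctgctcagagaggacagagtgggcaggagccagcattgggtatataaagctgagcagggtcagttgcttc
Nprl3 (chr11:32267708-32267957, minus strand): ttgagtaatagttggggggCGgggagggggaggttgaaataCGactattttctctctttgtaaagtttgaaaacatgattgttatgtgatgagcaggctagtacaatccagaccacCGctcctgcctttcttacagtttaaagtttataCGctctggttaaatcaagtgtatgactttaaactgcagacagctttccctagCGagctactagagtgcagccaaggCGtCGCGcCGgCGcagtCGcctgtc
The run holds 1 CpG for Hba-x, 4 for Hba-a1, 1 for Hbb-y, 2 for Hbb-bs, 0 for Hbb-bt and 11 for Nprl3, while the median over 27025 promoters is 6. The Hba-a2 run shares 247 bases without a break with that of Hba-a1. How reads that fit both copies were placed is not given in the sources used here, so values of the Hba-a1 and Hba-a2 windows may share reads. The Hbb-bs and Hbb-bt runs match at 51.0% of 249 aligned bases. CACCC, the core of the sequence that Klf1 binds, was found on either strand in all 5 printed globin runs (2 matches for Hba-x and Hba-a1, 1 for Hbb-y and Hbb-bs, 3 for Hbb-bt) and not in that of Nprl3, and 51.3% of all promoters hold it. CCAAT was found in 4 of these 5 runs (not in Hba-x), against 34.5% of all promoters, and matches of the 2 motifs were counted separately even where they touch. Each value below is a mean over a window that is much longer than its promoter, so the promoters' own CpGs are a small share of it.

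All values are the authors' deposited methylation percentages, on a scale of 0 to 100, and differences are in percentage points. A difference was called when its adjusted p in limma (Benjamini-Hochberg, over all 444250 windows) was under 0.05 and it was at least 10 points. A ± value from limma is an SE whose spread is pooled over all 9 groups, the nearly unmethylated DNMT_WT libraries at D0 included. It can therefore understate the error where the compared groups spread more. The mean over all tested windows was 51.7, 59.2 and 70.8% in TET_KO at D0, D1 and D2, 3.20, 13.6 and 49.6% in DNMT_WT, and 25.5, 33.3 and 52.5% in TET_WT. Among the TET_WT libraries, replicate 2 stood apart, with an all-window mean of 31.3% at D1 against 34.3 and 34.2%, and of 55.4% at D2 against 51.6 and 50.5%. No read counts come with the percentages, which leaves the sequencing depth of every window unknown, and bisulfite reads 5-methylcytosine and 5-hydroxymethylcytosine alike.

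Most windows of both globin loci were less methylated than the genome's median in every line and on every day, and both loci gained methylation from D0 to D2. In TET_KO, 20, 20 and 21 of the 24 windows lay below the median of all windows at D0, D1 and D2. The same count was 18, 18 and 17 in DNMT_WT and 20, 20 and 20 in TET_WT. Set against windows of the same length decile, 20, 21 and 21 lay below the median in TET_KO, 16, 18 and 17 in DNMT_WT, and 21, 20 and 20 in TET_WT.

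**Figure D1:**
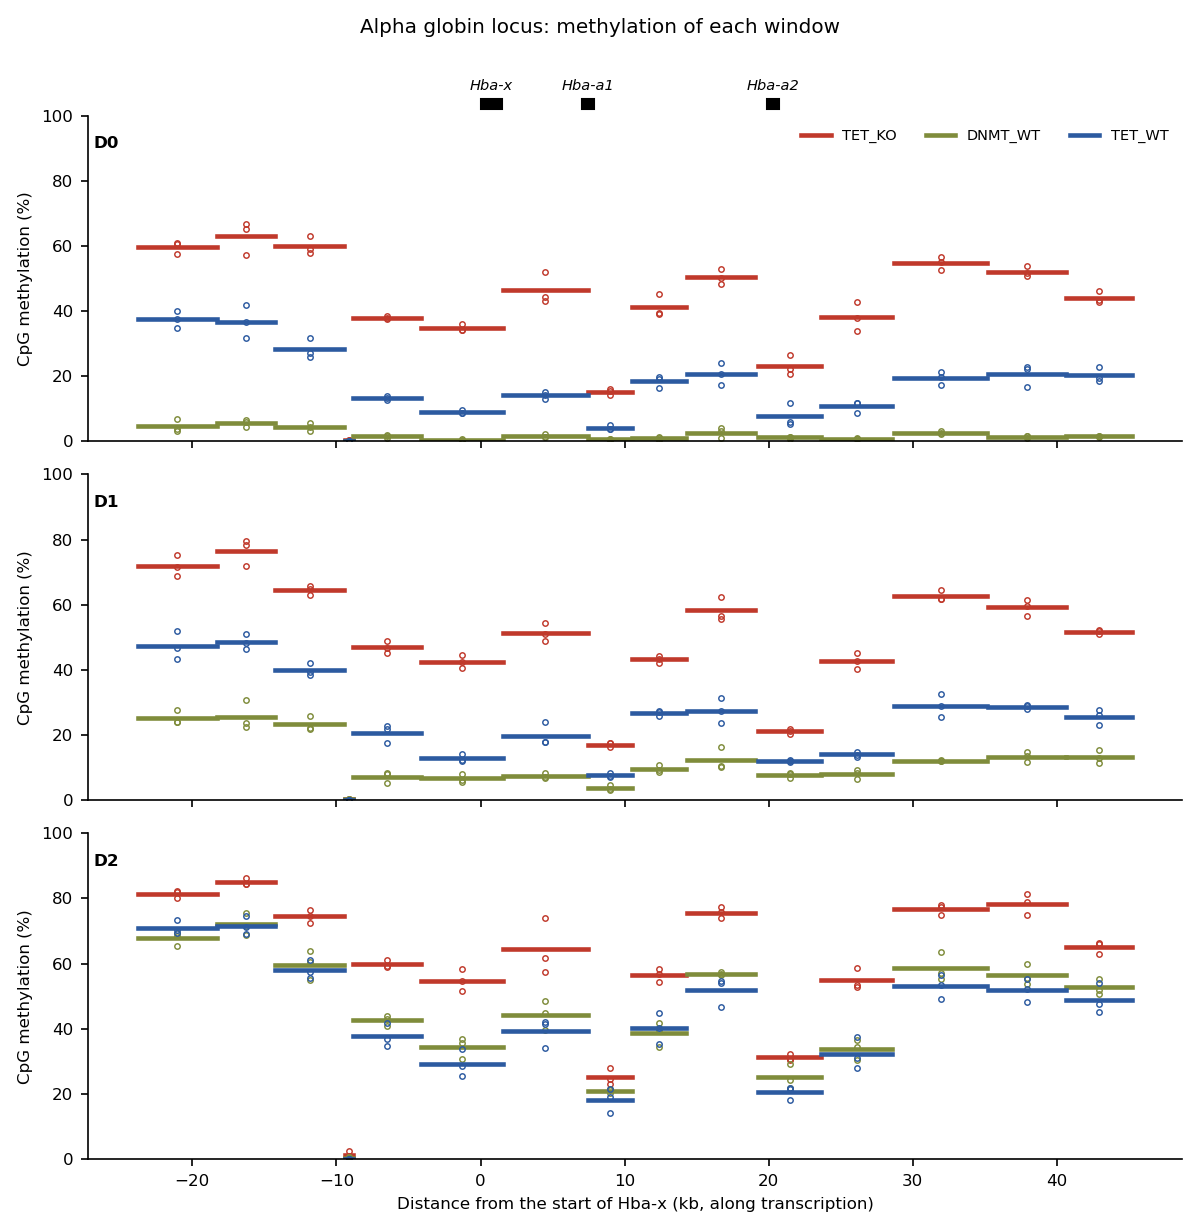
CpG methylation (%, y axis) of the 15 alpha-locus windows at D0, D1 and D2, against distance from the start of Hba-x (kb). Bars are window means, circles the 3 libraries of TET_KO, DNMT_WT and TET_WT, and black boxes on top the gene bodies. At D0 and D1 the longer windows over Nprl3, left of Hba-x, are the highest in each line, and the short window at its promoter has group means of at most 1.28%.

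At the alpha locus the embryonic gene Hba-x lies nearest to Nprl3. TET_KO values for Hba-x (chr11:32272504-32278168) were 36.1, 34.1 and 34.1% at D0, 44.7, 42.6 and 40.4% at D1, and 54.6, 51.4 and 58.3% at D2. DNMT_WT values for Hba-x were 0.354, 0.0578 and 0.686% at D0, 5.58, 6.33 and 8.12% at D1, and 36.8, 30.8 and 35.8% at D2. TET_WT values for Hba-x were 8.64, 9.73 and 8.66% at D0, 14.3, 11.98 and 12.4% at D1, and 25.4, 33.9 and 28.6% at D2. The 3 lines kept apart at D0 and D1, with TET_KO highest and DNMT_WT lowest in every library, and at D2 TET_KO remained above both others, whose libraries overlapped. TET_KO exceeded TET_WT by 25.7 ± 1.89 points (adjusted p = 2.7e-13) at D0, by 29.7 ± 1.89 points (adjusted p = 1.76e-14) at D1 and by 25.5 ± 1.89 points (adjusted p = 9.76e-13) at D2 in limma. The gain from D0 to D2 was 20.03 points in TET_KO and 20.3 points in TET_WT, a difference of -0.251 ± 2.67 points (adjusted p = 0.942).

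The adult gene Hba-a1 is split between a window that holds its promoter and the start of its body and one that holds the rest together with Hbq1b, a theta globin gene. TET_KO values for the first Hba-a1 window (chr11:32278169-32284051) were 44.2, 43.2 and 52.0% at D0, 51.0, 48.8 and 54.4% at D1, and 61.6, 74.1 and 57.4% at D2. DNMT_WT values for the first Hba-a1 window were 1.38, 2.28 and 1.24% at D0, 7.15, 8.39 and 6.77% at D1, and 44.9, 48.5 and 39.7% at D2. TET_WT values for the first Hba-a1 window were 15.1, 14.3 and 13.1% at D0, 17.7, 17.9 and 23.9% at D1, and 41.5, 41.96 and 34.1% at D2. It was the most methylated of the 4 alpha gene windows in TET_KO and TET_WT on each day, and its TET_KO libraries spread by 8.69 points (SD) at D2. TET_KO lay above TET_WT by 32.3 ± 3.07 points (adjusted p = 5.7e-11) at D0, 31.5 ± 3.07 points at D1 and 25.2 ± 3.07 points at D2, all called in limma.

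TET_KO values for the second Hba-a1 window (chr11:32284063-32287134) were 16.1, 14.2 and 15.6% at D0, 16.2, 17.5 and 17.5% at D1, and 24.6, 22.9 and 28.1% at D2. DNMT_WT values for the second Hba-a1 window were 0.879, 0.737 and 0.471% at D0, 4.59, 3.18 and 3.59% at D1, and 20.3, 21.4 and 21.1% at D2. TET_WT values for the second Hba-a1 window were 4.96, 3.72 and 3.69% at D0, 7.33, 7.24 and 8.21% at D1, and 21.4, 19.0 and 14.2% at D2. This was the lowest of the 8 globin gene windows in TET_KO on each day, yet all TET_KO libraries were above all TET_WT libraries at each. The difference, TET_KO minus TET_WT, was 11.2 ± 1.24 points (adjusted p = 1.36e-09) at D0, 9.48 ± 1.24 points (adjusted p = 3.43e-08) at D1 and 7.01 ± 1.24 points (adjusted p = 6.79e-06) at D2 in limma, under the 10-point minimum on the later days.

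Hba-a2, the second adult alpha gene, shares its window with Hbq1a. TET_KO values for Hba-a2 (chr11:32295856-32300256) were 26.5, 22.3 and 20.7% at D0, 21.9, 21.2 and 20.2% at D1, and 30.8, 30.5 and 32.2% at D2. DNMT_WT values for Hba-a2 were 0.771, 1.497 and 1.33% at D0, 8.42, 7.996 and 6.67% at D1, and 29.1, 21.8 and 24.4% at D2. TET_WT values for Hba-a2 were 5.95, 11.9 and 5.31% at D0, 11.7, 12.002 and 12.3% at D1, and 18.03, 21.7 and 21.6% at D2. TET_KO libraries at D1 did not lie above those at D0, and the 3 TET_WT libraries at D0 ranged more widely than those at D1. TET_KO exceeded TET_WT by 15.4 ± 1.64 points (adjusted p = 5.63e-10) at D0 and 10.7 ± 1.64 points (adjusted p = 7.07e-07) at D2, both called in limma, and by 9.13 ± 1.64 points (adjusted p = 6.92e-06) at D1, under the minimum.

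The windows over Nprl3 were on average the most methylated of the locus. They start at -23.79 kb from the start of Hba-x, and which of the alpha enhancers they hold was not examined. The mean of the 3 Nprl3 windows was 60.8, 71.0 and 80.3% in TET_KO at D0, D1 and D2, 4.90, 24.7 and 66.5% in DNMT_WT, and 34.2, 45.3 and 66.9% in TET_WT. It lay above the mean of the 4 alpha gene windows in 27 of 27 libraries, by 30.9, 37.9 and 36.4 points in TET_KO, by 3.93, 18.3 and 35.3 points in DNMT_WT, and by 25.4, 32.2 and 40.1 points in TET_WT at D0, D1 and D2. This contrast was chosen after the values were seen and is given without a test. The 567 bp window that holds the Nprl3 start site (chr11:32267162-32267728) is the exception: its group means were at most 1.28%, reached in TET_KO at D2, and it was listed at 0 in all 3 TET_WT libraries at D2. It was the only one of the 24 windows not called between TET_KO and TET_WT at D0, with a difference of 0.281 ± 0.404 points (adjusted p = 0.502) in limma.

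On the far side of the alpha genes, Gm46275 covers the windows with some of the larger differences. Its middle window (chr11:32305272-32311783) read 54.8 ± 1.96% in TET_KO and 19.6 ± 2.03% in TET_WT at D0 (SD, n = 3 each), a difference of 35.3 ± 2.14 points (adjusted p = 7.01e-15) in limma and the largest among the 24 windows on that day. At D2 it read 76.7 ± 1.69% in TET_KO and 53.0 ± 3.70% in TET_WT (SD, n = 3 each), 23.7 ± 2.14 points apart. The window between the genes Hbq1b and Hba-a2 (chr11:32290940-32295617) reached 75.7% in TET_KO, 56.9% in DNMT_WT and 51.9% in TET_WT at D2, above the flanking gene windows.

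**Figure D2:**
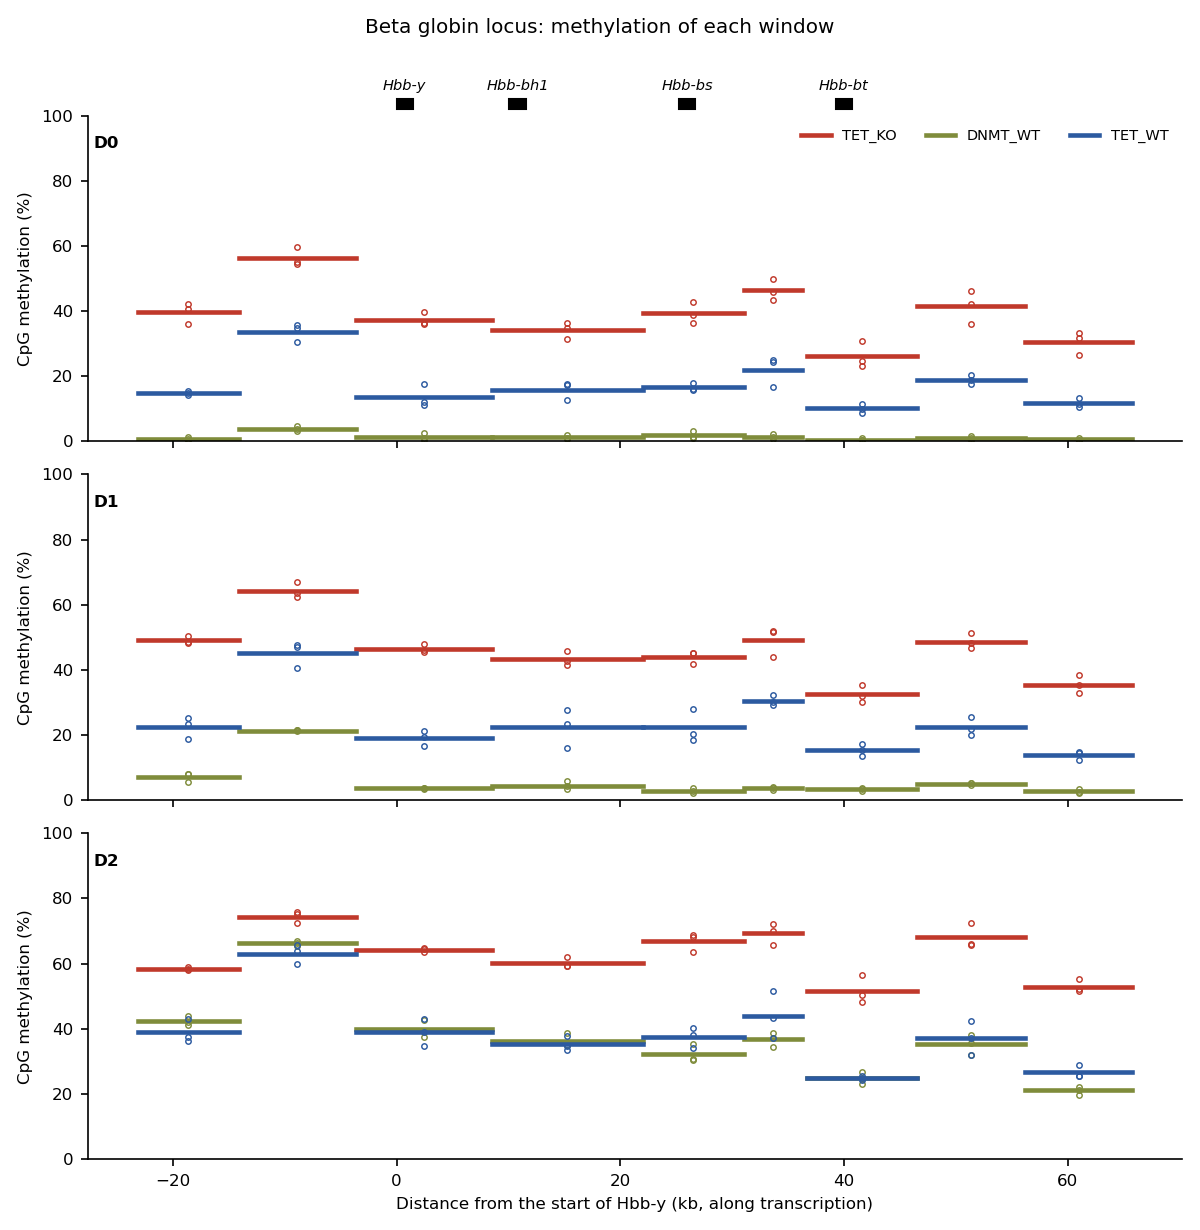
CpG methylation (%, y axis) of the 9 beta-locus windows at D0, D1 and D2, against distance from the start of Hbb-y (kb). Bars are window means, circles the 3 libraries of TET_KO, DNMT_WT and TET_WT, and black boxes on top the gene bodies. The window just upstream of Hbb-y is the highest in every line on each day.

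At the beta locus the embryonic genes lie nearest to the locus control region. TET_KO values for Hbb-y (chr7:103844694-103856871) were 35.9, 36.4 and 39.7% at D0, 47.9, 46.0 and 45.4% at D1, and 64.4, 64.9 and 63.5% at D2. DNMT_WT values for Hbb-y were 1.13, 2.48 and 0.558% at D0, 3.33, 3.79 and 3.74% at D1, and 37.5, 39.4 and 42.6% at D2. TET_WT values for Hbb-y were 12.2, 17.6 and 11.2% at D0, 21.4, 16.8 and 19.4% at D1, and 39.0, 43.0 and 34.8% at D2. TET_KO stood above both wild-type lines in every library, and the 2 wild-type lines overlapped at D2 only. TET_KO exceeded TET_WT by 23.6 ± 1.95 points (adjusted p = 2.93e-12) at D0, 27.2 ± 1.95 points (adjusted p = 1.64e-13) at D1 and 25.3 ± 1.95 points (adjusted p = 2.03e-12) at D2 in limma.

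The window of Hbb-bh1, the other embryonic beta gene, also covers Hbb-bh2 and Hbb-bh3. TET_KO values for Hbb-bh1 (chr7:103831213-103844693) were 34.9, 31.5 and 36.4% at D0, 41.4, 45.8 and 42.9% at D1, and 59.3, 62.1 and 59.3% at D2. DNMT_WT values for Hbb-bh1 were 1.07, 0.821 and 2.04% at D0, 5.79, 3.30 and 4.31% at D1, and 34.9, 34.9 and 38.6% at D2. TET_WT values for Hbb-bh1 were 12.7, 17.5 and 17.3% at D0, 27.7, 16.0 and 23.4% at D1, and 33.5, 37.8 and 34.7% at D2. TET_WT at D1 spanned the widest range, from 16.0 to 27.7%, and its lowest library there fell within the D0 range, while TET_KO was above TET_WT throughout. The TET_KO excess over TET_WT was 18.5 ± 2.16 points (adjusted p = 4.11e-09) at D0, 21.02 ± 2.16 points at D1 and 24.9 ± 2.16 points at D2, all called in limma.

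Of the adult beta genes, Hbb-bs shares its window with Gm15115. TET_KO values for Hbb-bs (chr7:103822150-103831212) were 36.4, 38.6 and 42.8% at D0, 41.8, 45.2 and 45.2% at D1, and 68.2, 68.9 and 63.6% at D2. DNMT_WT values for Hbb-bs were 1.26, 3.26 and 0.929% at D0, 3.64, 2.24 and 2.95% at D1, and 35.4, 30.7 and 30.4% at D2. TET_WT values for Hbb-bs were 16.1, 15.7 and 17.98% at D0, 20.4, 18.5 and 28.1% at D1, and 37.9, 40.2 and 34.0% at D2. In DNMT_WT the D0 and D1 libraries overlapped, and nearly all of the rise came between D1 and D2. TET_KO exceeded TET_WT by 22.7 ± 2.21 points (adjusted p = 9.24e-11) at D0, 21.7 ± 2.21 points at D1 and 29.5 ± 2.21 points at D2, all called in limma.

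Hbb-bt is the adult gene furthest from the locus control region. TET_KO values for Hbb-bt (chr7:103806727-103816513) were 23.2, 24.7 and 30.8% at D0, 32.1, 35.3 and 30.1% at D1, and 48.1, 56.3 and 50.3% at D2. DNMT_WT values for Hbb-bt were 0.991, 0.292 and 0.321% at D0, 2.75, 3.90 and 3.39% at D1, and 24.7, 23.1 and 26.8% at D2. TET_WT values for Hbb-bt were 11.5, 10.01 and 8.85% at D0, 13.7, 15.4 and 17.2% at D1, and 25.5, 24.7 and 24.1% at D2. It was the least methylated of the 4 beta gene windows in every group but DNMT_WT at D1, and at D2 its DNMT_WT and TET_WT libraries overlapped. TET_KO exceeded TET_WT by 16.1 ± 1.82 points (adjusted p = 2.07e-09) at D0, 17.1 ± 1.82 points at D1 and 26.8 ± 1.82 points at D2, all called in limma.

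The window upstream of Hbb-y (chr7:103856872-103867291), on the side of the locus control region, was the highest of the beta locus. TET_KO values upstream of Hbb-y were 54.9, 54.4 and 59.6% at D0, 63.6, 67.0 and 62.3% at D1, and 75.1, 75.7 and 72.4% at D2. DNMT_WT values upstream of Hbb-y were 3.81, 4.77 and 3.16% at D0, 21.5, 21.4 and 21.2% at D1, and 65.4, 66.3 and 67.1% at D2. TET_WT values upstream of Hbb-y were 34.9, 30.4 and 35.8% at D0, 47.6, 40.6 and 46.9% at D1, and 59.8, 65.6 and 63.8% at D2. Only here in the beta locus did DNMT_WT rise by a called amount between D0 and D1, by 17.4 ± 2.00 points (adjusted p = 1.7e-08) in limma. The window lay above the mean of the 4 beta gene windows in 27 of 27 libraries, by 22.0, 22.7 and 13.6 points in TET_KO, by 2.65, 17.8 and 33.0 points in DNMT_WT, and by 19.7, 25.2 and 28.9 points in TET_WT at D0, D1 and D2. As at Nprl3, this was chosen after the values were seen and was not tested. The next window out (chr7:103867292-103876348) was lower again, at 58.5% in TET_KO, 42.4% in DNMT_WT and 38.9% in TET_WT at D2. At the other end, the window of the olfactory receptor gene Olfr67 (chr7:103787446-103796992) read 52.9, 21.1 and 26.6% in TET_KO, DNMT_WT and TET_WT at D2.

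**Figure D3:**
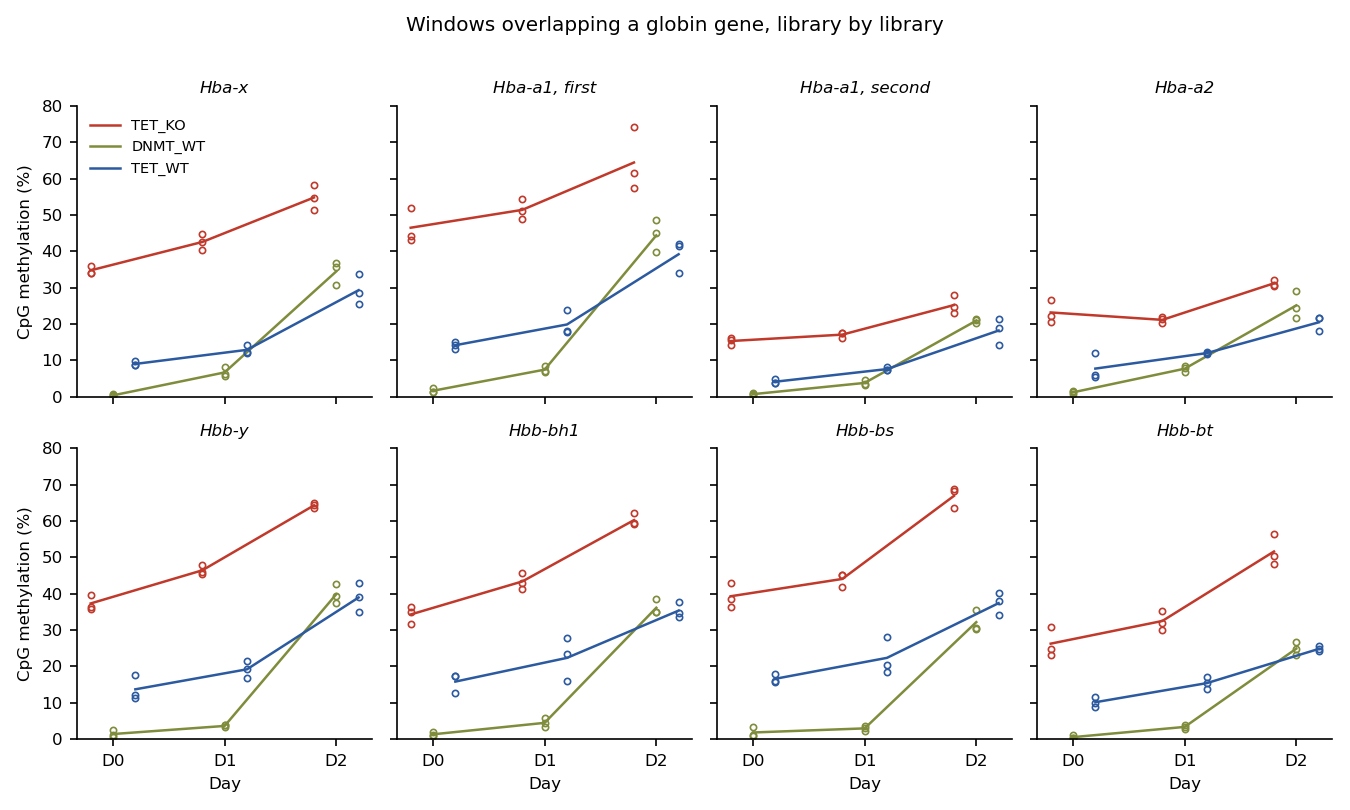
CpG methylation (%, y axis) by day (D0, D1, D2) in the 8 windows that overlap a globin gene body, 1 panel each. Points are libraries of TET_KO, DNMT_WT and TET_WT and lines join the group means of 3 libraries. TET_KO is above both wild-type lines in all 8 panels at D0 and D1, and at D2 the libraries of the wild-type lines overlap in every panel but that of Hba-a2.

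The loss of Tet1, Tet2 and Tet3 went with higher methylation over nearly all of both loci on each day. At D0, 23 of the 24 windows were called higher in TET_KO than in TET_WT, against 92.9% of all windows. At D1 the count was 21 of 24, against 92.6%, and at D2 it was 22 of 24, against 84.3%, so that the globin windows were close to the genome's share. No window was called lower. In 23, 23 and 24 of the 24 windows at D0, D1 and D2, all TET_KO libraries lay above all TET_WT libraries, against 96.3, 96.3 and 93.0% of all windows. The median difference over the 24 windows was 23.7 points at D0, 25.4 at D1 and 23.3 at D2, against medians of 27.5, 27.4 and 17.9 points over all windows. The library medians of TET_KO and TET_WT lie 30.4, 30.3 and 20.7 points apart at D0, D1 and D2, more than the median window difference. Most windows of the genome therefore fall below 0 on each day once centred, by a share that was not counted. Measured against each library's own median, 4 of the 24 globin windows lie above 0 at D0 and at D1. The direction turns in most of them, as it does genome-wide, and at D2 14 lie above 0, 7 of them among the 9 beta windows. Of the 24, 0, 0 and 1 are then called higher in TET_KO at D0, D1 and D2 (3.69, 2.76 and 8.47% of all windows) and 6, 7 and 3 lower (19.2, 19.8 and 18.0%).

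The excess of TET_KO over TET_WT was similar in both loci at D0 and smaller in the alpha than in the beta locus at D2. Over its 15 windows the alpha locus averaged 41.4 ± 1.09, 47.3 ± 0.53 and 59.0 ± 0.68% in TET_KO at D0, D1 and D2, 2.03 ± 0.17, 11.7 ± 0.48 and 44.3 ± 0.58% in DNMT_WT, and 17.4 ± 0.96, 24.0 ± 1.16 and 41.6 ± 2.43% in TET_WT (SD, n = 3 each). The beta locus averaged 39.0 ± 2.65, 45.9 ± 0.96 and 62.9 ± 1.30% in TET_KO, 1.43 ± 0.32, 6.05 ± 0.05 and 37.2 ± 0.61% in DNMT_WT, and 17.5 ± 0.37, 23.7 ± 2.34 and 38.5 ± 3.01% in TET_WT (SD, n = 3 each). TET_KO libraries lay above TET_WT libraries on every day in both loci. The excess of TET_KO over TET_WT was 24.0 ± 0.84, 23.3 ± 0.74 and 17.4 ± 1.46 points at D0, D1 and D2 in the alpha locus, and 21.5 ± 1.55, 22.2 ± 1.46 and 24.4 ± 1.89 points in the beta locus (SE).

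Pooled over the days, TET_KO exceeded TET_WT by 21.6 ± 0.61 points in the alpha locus and 22.7 ± 0.95 points in the beta locus. Each has p = 0.00025 in a two-sided exact permutation test of the libraries within days, the smallest these 8000 arrangements can give, and an adjusted p = 0.000563 over 9 such tests of locus means. Pooled, the test did not separate the 2 loci, with beta minus alpha at 1.14 ± 0.67 points (p = 0.4085, adjusted p = 0.460, exact permutation). The daily values of beta minus alpha were -2.47 ± 1.58, -1.13 ± 1.08 and 7.002 ± 0.55 points at D0, D1 and D2 (SE). The exact permutation test within a day, with 3 against 3 libraries, gives p = 0.1 at D2, the smallest it can give. Restricted to the 8 gene windows, beta minus alpha was 3.46 points (p = 0.0365, exact permutation, not adjusted). There the TET_KO excess was 21.2, 19.9 and 17.1 points in alpha and 20.2, 21.8 and 26.6 points in beta at D0, D1 and D2.

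Window length goes with these values. At D2, windows in the same length decile as the beta windows had median TET_KO excesses of 17.4 to 28.4 points, and 5 of 9 beta windows lay above their own decile's median. At D0 it was 0 of 9 and at D1 1 of 9. For the alpha windows the counts were 5, 6 and 9 of 15 at D0, D1 and D2. In the beta locus the largest D2 difference, 30.9 ± 2.50 points, was in the window between Olfr67 and Hbb-bt (chr7:103796993-103806673).

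**Figure D4:**
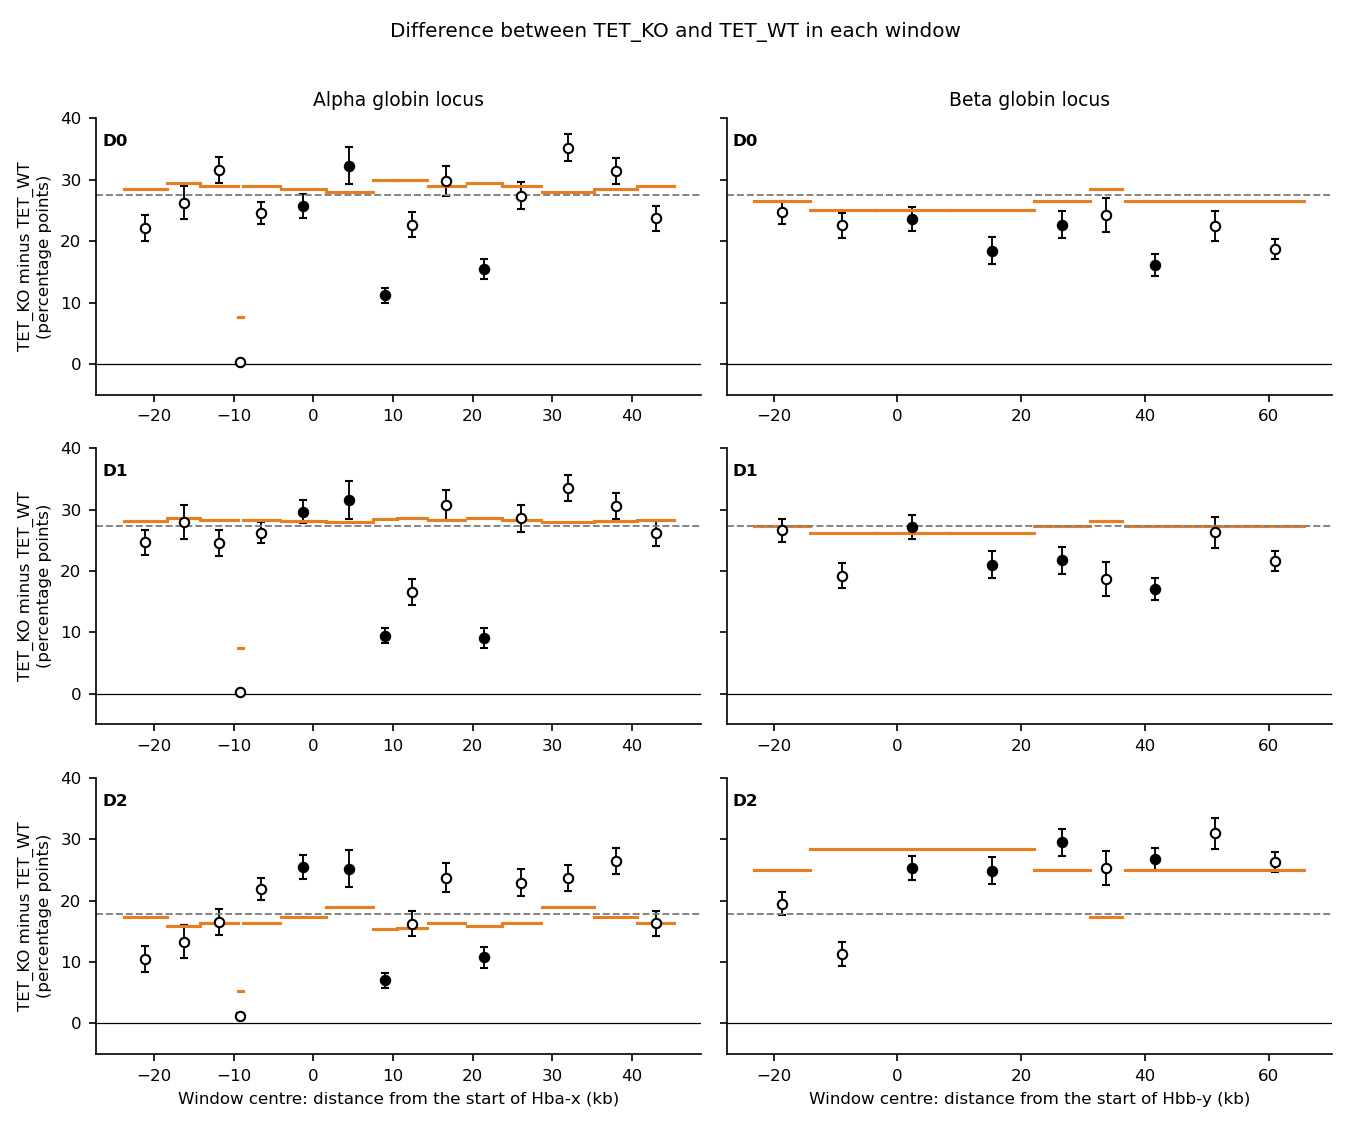
TET_KO minus TET_WT methylation (percentage points, y axis) of each window at D0, D1 and D2, against distance along the alpha and beta loci (kb), with SE bars from limma. Filled points overlap a globin gene body, the dashed grey line is the median of all windows and orange marks the median of windows of the same length decile. At D0 no beta window is above its length median, and at D2 5 of 9 are.

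From D0 to D2 the knockout's gain was called larger than its parent's at 1 globin window and smaller at 5, among them those over Nprl3 and upstream of Hbb-y. A difference in gain was called in 6 of the 24 windows (46.7% of all windows), 1 with a larger gain in TET_KO (2.5% of all windows) and 5 with a smaller one (44.2%). The larger gain was at Hbb-bt, 25.3 points in TET_KO and 14.7 points in TET_WT, a difference of 10.7 ± 2.58 points (adjusted p = 0.000883) in limma. The call at Hbb-bt is lost without any of 4 libraries (TET_KO D0 replicate 1 or 2, TET_KO D2 replicate 2, TET_WT D0 replicate 1), where the difference is 8.31 to 9.98 points, and on a logit scale (adjusted p = 0.835, limma). The median difference in gain among windows of its length decile was -1.40 points.

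Smaller gains in TET_KO were called at the window upstream of Hbb-y, 18.1 points in TET_KO and 29.3 points in TET_WT (-11.3 ± 2.83 points, adjusted p = 0.00125 in limma), and at all 3 Nprl3 windows. The Nprl3 windows gained 21.8, 22.0 and 14.6 points in TET_KO and 33.4, 35.0 and 29.7 points in TET_WT, which leaves -11.6 ± 2.94, -13.0 ± 3.83 and -15.1 ± 3.01 points. The fifth was the middle Gm46275 window, at -11.5 ± 3.02 points (adjusted p = 0.00188) in limma. The window upstream of Hbb-y keeps its direction but loses its call without TET_KO D0 replicate 3, TET_WT D0 replicate 2 or TET_WT D2 replicate 2, with -9.63, -9.63 and -9.99 points. By direction alone, the gain was larger in TET_KO in 7 of 9 beta windows (median 6.42 points) and in 1 of 15 alpha windows (median -6.03 points), and the median over all windows was -8.69 points. Against their length deciles, 6 of 9 beta and 12 of 15 alpha windows lay above the median. On a logit scale 3 windows are called (share of all windows not given here), and against library medians the split is 8 larger (17.9% of all windows) and 0 smaller (8.45%). TET_WT libraries enter both this comparison and that with DNMT_WT.

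DNMT_WT started almost unmethylated over both loci, and at D2 it differed from TET_WT by a called amount in none of the windows. At D0, 18 of 24 windows were called lower in DNMT_WT than in TET_WT (88.9% of all windows), and at D1 19 of 24 (85.6%). A drop of 10 points was not possible where TET_WT itself averaged under 10%. At D0 this held for Hba-x (9.01%), the second Hba-a1 window (4.12%), Hba-a2 (7.73%) and the Nprl3 start-site window (0.0319%). At D1 it held for the second Hba-a1 window (7.59%) and the Nprl3 start-site window (0.0561%). At D2 none was called in limma (12.3% of all windows), and 6 of the 24 pass an adjusted p of 0.05 at any size (39.2%). Against library medians, 10 windows at D0 and 5 at D1 are called higher in DNMT_WT (15.8 and 16.0% of all windows) and 0 lower (13.5 and 7.95%). The library medians averaged 25.2% in TET_WT and 2.35% in DNMT_WT at D0, and 33.7 and 12.7% at D1. A window low in TET_WT thus comes out higher in DNMT_WT by the centring alone. These calls do not show more methylation in DNMT_WT. The D2 differences, DNMT_WT minus TET_WT, ran from -7.25 to 5.65 points, with 5.17 ± 1.89 points at Hba-x, 4.65 ± 1.64 at Hba-a2 and -5.23 ± 2.21 at Hbb-bs. Pooled over days, DNMT_WT minus TET_WT was -8.33 ± 0.57 points in the alpha locus (adjusted p = 0.00611) and -11.7 ± 0.75 points in the beta locus (adjusted p = 0.00337) by the exact permutation test. At D0, D1 and D2 it was -15.4, -12.3 and 2.72 points for alpha and -16.1, -17.7 and -1.28 points for beta. The 2 loci differed in the pooled value, with beta minus alpha at -3.35 ± 0.33 points (adjusted p = 0.00135, exact permutation). By day, beta minus alpha was -0.68, -5.36 and -3.9995 points at D0, D1 and D2.

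The gain from D0 to D2 was larger in DNMT_WT than in TET_WT by a called amount in 19 of 24 windows, against 82.7% of all windows. Against library medians 2 of 24 gains are called larger in DNMT_WT (12.5% of all windows) and 5 smaller (16.8%). Of the 24, 8 then lie above 0, and the share of all windows that do was not counted. Uncentred, the difference ranged up to 33.0 ± 2.83 points at the window upstream of Hbb-y, which gained 62.4 points in DNMT_WT and 29.3 points in TET_WT. Over the locus means, D2 minus D0 was 17.6 ± 0.74 points in TET_KO, 42.3 ± 0.35 points in DNMT_WT and 24.1 ± 1.51 points in TET_WT for alpha, and 23.9 ± 1.71, 35.8 ± 0.40 and 21.0 ± 1.75 points for beta (SE). Over all windows these means were 19.0, 46.4 and 27.1 points. Pooled over the lines, D2 minus D0 was 28.0 ± 0.57 points for alpha and 26.9 ± 0.83 points for beta, each with p = 0.00025 and adjusted p = 0.000563 in the exact permutation test. Beta minus alpha was -1.13 ± 0.56 points (p = 0.47375, adjusted p = 0.474, exact permutation), made up of 6.29 ± 1.55 points in TET_KO, -6.50 ± 0.12 points in DNMT_WT and -3.18 ± 0.63 points in TET_WT. Over the 8 gene windows alone it was 5.43 points (p = 0.0005), and with flanks of 10 kb 3.37 points (p = 0.007), in the exact permutation test, not adjusted. The beta and alpha gene windows gained 26.5 and 14.0 points in TET_KO, 32.0 and 30.2 in DNMT_WT, and 20.1 and 18.0 in TET_WT.

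Averaged over each locus, most of the gain came on the second day. Between D0 and D1, 2 of 24 windows were called higher in TET_KO (20.1% of all windows), 6 in DNMT_WT (49.0%) and 3 in TET_WT (27.6%). Without TET_KO D0 replicate 3 the TET_KO count is 5, and without TET_WT D1 replicate 2 the TET_WT count is 5. Between D1 and D2 the counts were 19 (65.8%), 23 (94.9%) and 21 (88.0%) in TET_KO, DNMT_WT and TET_WT. Against library medians, 0 of 24 windows are called higher and 1 lower between D0 and D1 in TET_KO (0.016 and 0.216% of all windows), 1 and 1 in DNMT_WT (9.03 and 2.99%), and 0 and 0 in TET_WT (0.296 and 0.22%). Between D1 and D2 they are 1 higher and 1 lower in TET_KO (0.743 and 4.89%), 0 and 10 in DNMT_WT (2.62 and 25.4%), and 0 and 4 in TET_WT (2.17 and 17.8%). The 6 windows that rose early in DNMT_WT include the 3 over Nprl3 and the 1 upstream of Hbb-y.

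By D1 the beta gene windows of DNMT_WT had reached less of their rise than the windows over Nprl3 and upstream of Hbb-y. The share of the D0 to D2 rise already reached at D1 had a median of 21.1% over all windows in DNMT_WT. It was 32.5 ± 2.38, 30.1 ± 4.10 and 34.1 ± 3.02% in the Nprl3 windows and 28.0 ± 0.60% upstream of Hbb-y (SE). The beta gene windows stood at 5.80 ± 1.46% for Hbb-y, 9.07 ± 2.32% for Hbb-bh1, 3.71 ± 2.68% for Hbb-bs and 11.6 ± 1.68% for Hbb-bt. The alpha gene windows lay between, at 18.5 ± 2.46% for Hba-x, 13.6 ± 1.55 and 15.3 ± 2.14% for the Hba-a1 windows and 27.2 ± 3.36% for Hba-a2. In DNMT_WT, 8 of 9 beta windows and 6 of 14 alpha windows were below the all-window median. The counts were 7 of 9 and 9 of 12 in TET_KO (median 39.97% over all windows) and 4 of 9 and 8 of 14 in TET_WT (28.6%). Windows that rose by under 10 points were left out, and the shares are given without a test. The all-window medians are not matched for length. In the length decile of Hbb-bs and Hbb-bt, the median DNMT_WT value was 1.56, 6.28 and 39.97% at D0, D1 and D2. In that of Hba-x it was 2.84, 15.1 and 57.85%. The D0 to D1 rise of DNMT_WT lay below the length-decile median in 6 of 9 beta and 11 of 15 alpha windows. Whether the low shares of the beta windows go with their length was not tested.

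**Figure D5:**
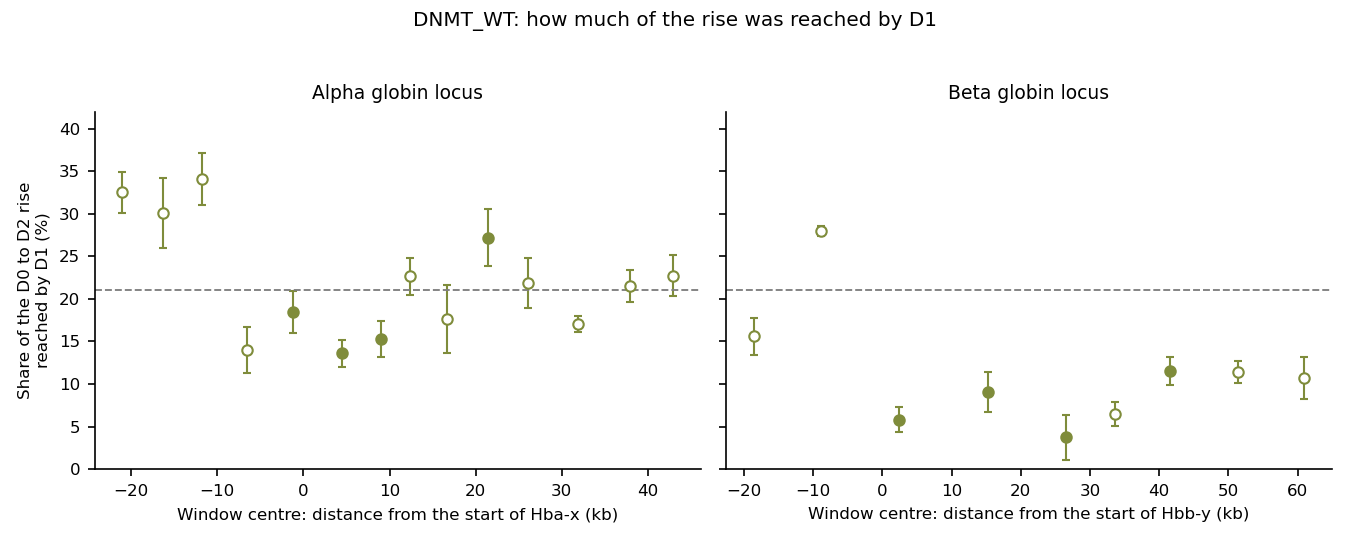
Share of the D0 to D2 methylation rise reached by D1 in DNMT_WT (%, with SE), for each window of the alpha and beta loci with a rise of at least 10 points. Filled points overlap a globin gene body, and the dashed line is the median of all windows of any length, 21.1%. The Nprl3 windows and the window upstream of Hbb-y are above it, and the 4 beta gene windows are at 3.71 to 11.6%. The dashed line is not matched to the length of the windows shown.

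Genes that regulate globin transcription had higher deposited percentages in TET_KO than in TET_WT, as nearly all genes had, and against library medians the direction turns. For each gene the windows over its body were averaged, which gave 21430 genes. Of 20 regulators, all 20 were called higher in TET_KO at D0 and at D1 and 18 at D2, against 96.2, 96.1 and 85.8% of all genes. Their median difference was 23.9, 23.8 and 13.4 points, against 25.2, 24.4 and 14.9 points over all genes. Against library medians it was -6.45, -6.50 and -7.29 points, against -5.20, -5.97 and -5.79 points over all genes. Gata1, the erythroid GATA factor on the X chromosome, averaged 65.0 ± 2.35% in TET_KO and 29.6 ± 0.92% in TET_WT at D0 (SD, n = 3 each), 35.4 ± 1.36 points apart. At D2 it averaged 84.0% in TET_KO and 70.1% in TET_WT, and its gain was smaller in TET_KO by a difference of -21.5 ± 1.92 points. Klf1, the erythroid activator of adult beta globin, averaged 25.0 ± 0.58% in TET_KO and 9.14 ± 0.12% in TET_WT at D0 (SD, n = 3 each), and its D2 difference of 9.12 points was under the minimum. Tal1, a haematopoietic bHLH factor, was 16.0 ± 0.70 points higher in TET_KO than in TET_WT at D0 and 12.9 points at D2. The smallest D0 difference was at Zbtb7a, a repressor of fetal globin in humans, with 18.1% in TET_KO and 3.27% in TET_WT. Gains were called smaller in TET_KO for 10 of the 20 regulators, against 46.3% of all genes, and against library medians for 1 (0.989% of all genes), with 0 larger (11.0%).

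Genes of the red cell itself also had higher percentages in TET_KO. Of 30 erythroid cell genes, which encode membrane, haem and surface antigen proteins, 29 were measured, and 29, 29 and 27 were called higher in TET_KO than in TET_WT at D0, D1 and D2, against 96.2, 96.1 and 85.8% of all genes. Their median differences of 29.2, 26.8 and 15.4 points lay beside 25.2, 24.4 and 14.9 points over all genes, and were -1.21, -3.50 and -5.31 points against library medians. Aqp1, a water channel, averaged 63.5% in TET_KO and 27.8% in TET_WT at D0, 35.8 ± 1.30 points apart. Kel, a blood group antigen, held its difference at D2, with 72.8% in TET_KO and 42.6% in TET_WT, 30.2 ± 1.78 points apart. Alas2, the erythroid enzyme that starts haem synthesis, and Icam4, an erythroid adhesion protein, were 9.64 and 7.99 points higher at D2, under the minimum. Gains were called smaller in TET_KO for 19 of the 29, against 46.3% of all genes, and against library medians 0 are called smaller (0.989% of all genes) and 1 larger (11.0%). The differences of gains were -17.7 points for Fech, which inserts iron into haem, and 0.40 points for Kel, which was not called.

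Of 7 other globins, 6 were measured, and all 6 were called higher in TET_KO on each day, against 96.2, 96.1 and 85.8% of all genes at D0, D1 and D2. Against library medians 2, 2 and 0 of them are called lower, against 23.6, 26.8 and 18.4% of all genes, and 0 higher, against 0.308, 0.219 and 2.99%. Hbb-bh2 lies in the Hbb-bh1 window and repeats its values. Hbq1b and Hbq1a average the second Hba-a1 window and the Hba-a2 window, each with the next window along, so they partly repeat those values. Mb, the myoglobin of muscle, averaged 60.6% in TET_KO and 26.9% in TET_WT at D0, and Cygb and Ngb, the globins of fibroblast-like cells and of neurons, were 29.2 and 24.5 points higher in TET_KO. The gains of Mb and Cygb were called smaller in TET_KO, with differences of -17.6 and -14.8 points.

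Among 21418 genes, the body methylation most like the mean of the 4 alpha gene windows over the 27 libraries was that of Plk5, Wdr82 and Pigz, with root mean square differences of 1.14, 1.28 and 1.34 points against a median of 17.3 over genes. The mean of the 4 beta gene windows was matched most closely by Olfr715b, 4930433I11Rik and Olfr1436, at 1.63, 1.66 and 1.81 points against a median of 13.0.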

How the data were processed

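Whole-genome bisulfite libraries were trimmed and aligned to GRCm38 with Trim Galore 0.6.6, cutadapt 2.3 and Bismark 0.23.0, per the submitters' processing notes. The authors' deposited table gives 1 methylation percent per window and library, with no read counts, so the depth per sample is unknown and no interval for counting error can be given; the coverage minimum behind a value is not given in the sources used here. Groups follow the genotype and time labels, with 27 libraries in 9 groups of 3. Deposited percentages were fitted with limma 3.58.1 in R 4.3.3 (9 group means, trended empirical Bayes, 18 residual degrees of freedom, median residual SD 2.60 points) over 444250 windows, and gene-body means over 21430 genes. Calls needed a Benjamini-Hochberg adjusted p under 0.05 and 10 points. The procedure was tested on simulated data. Locus means were tested by two-sided exact permutation within days or lines, adjusted over 9 tests. Python 3.11.15, numpy 2.4.6, pandas 2.3.3 and matplotlib 3.10.9 were used.

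The members, gene lists and tests were chosen with earlier results of these data known. Any globin window could be named, and from each list, for each day and for the gain, the 4 called genes with the largest and the 2 genes with the smallest differences, Gata1, Klf1 and Tal1, and the 3 genes most like each locus by root mean square difference. Replicate numbers did not pair the libraries: over 108 pairs of same-numbered libraries the correlation of deviations was -0.0549 to 0.0570. No pair of libraries shared more than 0.0110% of identical values. Alternatives were centring on library medians, a logit scale, other minimum differences, flanks of 10 kb or none, length weighting, a replicate block, and leaving out each library in turn.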

Additional observations from a re-analysis of the deposited data

Results flagged for a closer look

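The results below were picked out because the D0 to D2 gain differed between lines by a called amount in limma's test of the difference itself. TET_KO minus TET_WT, the gain differed by 10.7 points at Hbb-bt, -11.3 points upstream of Hbb-y, -11.6, -13.0 and -15.1 points at the Nprl3 windows and -11.5 points at the middle Gm46275 window. These are 1 higher and 5 lower of 24, where 2.5 and 44.2% of all windows are called.

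DNMT_WT minus TET_WT, the gain differed in the beta locus by 33.0 points upstream of Hbb-y, 17.6 points in the next window out, 13.2 points at Hbb-y, 15.3 points at Hbb-bh1, 13.4 points between Hbb-bs and Hbb-bt, and 16.0 points between Hbb-bt and Olfr67. In the alpha locus it differed by 29.7, 31.4 and 25.6 points at the Nprl3 windows, 16.6 points between Nprl3 and Hba-x, 13.8 points at Hba-x and 17.7 points at the first Hba-a1 window. Further along, the difference was 16.0 points at Hbq1b, 23.0 points between Hbq1b and Hba-a2 and 11.2 points at Hba-a2. At the Gm46275 windows it was 11.5, 22.6 and 23.8 points, and beyond them 22.5 points. Both comparisons use the same TET_WT libraries.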

How the results depend on the processing

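Centring each library on its own median turned the pooled locus differences to -5.58 points (alpha) and -4.44 points (beta) for TET_KO minus TET_WT, 7.31 and 3.96 points for DNMT_WT minus TET_WT, and -6.28 and -7.42 points for D2 minus D0. By day, centred TET_KO minus TET_WT was -6.38, -7.04 and -3.30 points for alpha and -8.85, -8.17 and 3.70 points for beta at D0, D1 and D2, so beta did not turn at D2. Centred D2 minus D0 was -3.63 (TET_KO), -8.51 (DNMT_WT) and -6.71 (TET_WT) points for alpha and 2.65, -15.01 and -9.89 points for beta. Calls of 24 then were 6, 7 and 4 for TET_KO against TET_WT at D0, D1 and D2 (all lower but 1 at D2), and 10 and 5 for DNMT_WT against TET_WT at D0 and D1, all higher. By step they were 1 and 2 (TET_KO, of which 1 higher in the second), 2 and 10 (DNMT_WT, of which 1 higher in the first) and 0 and 4 (TET_WT, all lower), and 7 for the gain of DNMT_WT against TET_WT (2 larger, 5 smaller). Centred TET_KO minus TET_WT at D0 was -4.64 at Hba-x, -19.2 at the second Hba-a1 window, -14.9 at Hba-a2, -14.3 at Hbb-bt, -7.68 at Hbb-bs, -11.9 at Hbb-bh1, -6.76 at Hbb-y, -7.79 upstream of it, and -8.26 and -4.10 at Nprl3, with 4 of 24 windows above 0, among them 1.93 at the first Hba-a1 and 1.23 at the third Nprl3 window. At D2 it was -13.7 at the second Hba-a1 window, -9.99 at Hba-a2, -9.42 upstream of Hbb-y, and -10.2, -7.44 and -4.26 at Nprl3, with 14 of 24 above 0, among them 4.75 at Hba-x, 4.501 at the first Hba-a1 window, 6.07 at Hbb-bt, 8.76 at Hbb-bs, 4.15 at Hbb-bh1 and 4.59 at Hbb-y. Over gene windows alone (of 8), calls were 8, 6 and 7 for TET_KO and 4 and 5 for DNMT_WT against TET_WT, 0 and 7 (TET_KO), 0 and 8 (DNMT_WT) and 0 and 6 (TET_WT) by step, and 1 (TET_KO) and 5 (DNMT_WT) for gain. Beta minus alpha was then 3.46 points for TET_KO minus TET_WT, largest at D2, and 5.43 points for D2 minus D0, largest in TET_KO (p = 0.0365 and 0.0005, exact permutation, not adjusted). D2 minus D0 for beta minus alpha also turned with 10 kb flanks, to 3.37 points (p = 0.007, exact permutation), and on the logit scale, to 0.0277 log2 units (p = 0.667, exact permutation), where gain calls for TET_KO were 3. Weighting by length gave -1.08 points for beta minus alpha in TET_KO minus TET_WT (p = 0.4205, exact permutation). With a minimum of 20 points calls were 14 (TET_KO, D2), 5 and 4 (DNMT_WT, D0 and D1), 0 and 2 (TET_KO steps), 1 (DNMT_WT, first step), 0 and 6 (TET_WT steps), and 0 and 8 for gain. With no minimum they were 6 (DNMT_WT, D2, 39.2% of all windows), 17, 15 and 18 (first step in TET_KO, DNMT_WT and TET_WT) and 10 for the TET_KO gain. No share of all windows is given beside the other counts for these minimums, the gene windows or the logit scale. Those counts show how the calls depend on the setting, not how the globin loci compare with the genome. With a replicate block every count of calls was as before (23, 21 and 22 for TET_KO against TET_WT), and the locus p-values were 0.00391 for TET_KO minus TET_WT and D2 minus D0, 0.0273 (alpha) and 0.0156 (beta) for DNMT_WT minus TET_WT, and 0.00781, 0.520 and 0.574 for beta minus alpha in DNMT_WT, TET_KO and D2 minus D0 (exact permutation); it changed no call. Leaving out each library in turn, counts of calls moved by over 1.5 times only for DNMT_WT against TET_WT at D2 (0 to 1) and the first step in TET_KO (2 to 5) and TET_WT (2 to 5), and the pooled locus differences kept their direction and side of the threshold. The unknown read depth limits every single window.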
